A study of Rattus norvegicus with 12 samples.

Results

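The anterior pituitary glands of male Ept1 and Ept2 congenic rats, both treated with the synthetic estrogen diethylstilbestrol (DES), were compared directly with each other. All 3 Ept1 arrays and all 3 Ept2 arrays entered the comparison, out of 12 arrays in the series, and every probe set except the array controls was kept, which gave 31042 of 31099 probe sets. Both lines carry alleles of the Copenhagen (COP) rat on an ACI background. In Ept1 the COP segment lies on chromosome 6, and in Ept2 it lies on chromosome 3, so the lines differ by design at both segments. Every rat received a silastic implant holding 5 mg of DES under the skin at 9 weeks of age, was injected with BrdU (50 mg/kg, a label of DNA synthesis) 4 h before death and was killed at 21 weeks, after 12 weeks of DES. The other 6 arrays came from Ept6, whose COP segment is also on chromosome 3, and from Ept9, whose segment is on chromosome 10, under the same treatment. They are used below for their levels only. No array of the ACI parent and none of an untreated rat was analysed here, so a difference between Ept1 and Ept2 has no parental reference. How far the 3 arrays of a line are independent is unclear from the labels: the series design calls them 3 biological replicates, whereas the sample notes count 3 males but fewer independent replicates. The p-values below may therefore reflect technical spread in part.

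The anterior pituitary holds several hormone-producing cell types. Lactotrophs make prolactin, somatotrophs growth hormone, gonadotrophs luteinizing and follicle-stimulating hormone, thyrotrophs thyrotropin and corticotrophs the precursor of corticotropin. Estrogens drive lactotrophs to divide and to make prolactin, and prolonged exposure enlarges the gland in susceptible rat strains such as ACI, while the COP strain differs from ACI in that response. Ept loci are chromosome regions mapped for estrogen-induced pituitary growth, and a congenic line isolates the alleles of one such region. The arrays read RNA from the whole anterior lobe, in which fewer cells of a type and less RNA per cell cannot be told apart.

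The tissue carried the label's markers. Prl, the prolactin gene, had the highest mean signal of all probe sets, and Gh1, the growth hormone gene, ranked at the 99.9th percentile of the mean signal. Avp and Oxt, the vasopressin and oxytocin genes that mark the posterior lobe, gave signals of 10.0 to 30.7 and 10.1 to 86.1 in Ept1 and 6.2 to 35.7 and 19.2 to 154 in Ept2. Signal is linear and in arbitrary units, with every array scaled to a trimmed mean of 500.2. Correlations of log2(signal + 16) between arrays ran from 0.969 to 0.970 within Ept1, from 0.958 to 0.966 within Ept2 and from 0.962 to 0.967 between the lines.

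At an adjusted p under 0.05, 11 of 31042 probe sets were called between Ept1 and Ept2, which is 0.0354% of those tested (limma, Benjamini-Hochberg adjustment over all probe sets). Of these, 4 were higher in Ept1 (0.0129%) and 7 were lower in Ept1 (0.0226%). An unadjusted p under 0.05 was reached by 2370 probe sets. The 3 Ept1 arrays lay all above the 3 Ept2 arrays for 1949 probe sets (6.28%) and all below them for 2240 (7.22%), and all 11 called probe sets were among these. The called probe sets hold 7 with a gene symbol, namely Harbi1, Spint1 and Kcnip3 on chromosome 3, Bcl11b and Cdkl4 on chromosome 6, Ifitm2 on chromosome 1 and Kdm3a on chromosome 4. A measure of RNA quality moved with the line. The Gapdh 3′ minus 5′ difference on the log2 scale, which grows as RNA degrades, was 0.25, 0.25 and 0.26 in Ept1 and 0.40, 0.31 and 0.42 in Ept2 (exact permutation test, two-sided, p = 0.1, the smallest that 3 against 3 arrays can give). That of beta-actin was 1.59, 1.79 and 1.70 in Ept1 and 1.76, 1.85 and 1.81 in Ept2, which overlapped (exact permutation test, p = 0.2). Hexokinase gave 0.64, 0.93 and 1.40 in Ept1 and 1.54, 1.07 and 1.26 in Ept2, which overlapped too (exact permutation test, p = 0.4). The Gapdh value hardly varied within Ept1 (SD 0.0074, beside 0.057 in Ept2), so its part and that of the line cannot be fully told apart. With the Gapdh value as a covariate limma called 0 probe sets, with 2466 at an unadjusted p under 0.05. Without the intensity trend of the limma fit 0 were called as well, with 2160 at an unadjusted p under 0.05. With the covariate the 11 kept their sign and an unadjusted p under 0.05, and the median size of their differences was 1.55 beside 1.64, while the median standard error of their differences went from 0.16 to 0.33.

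**Figure D1:**
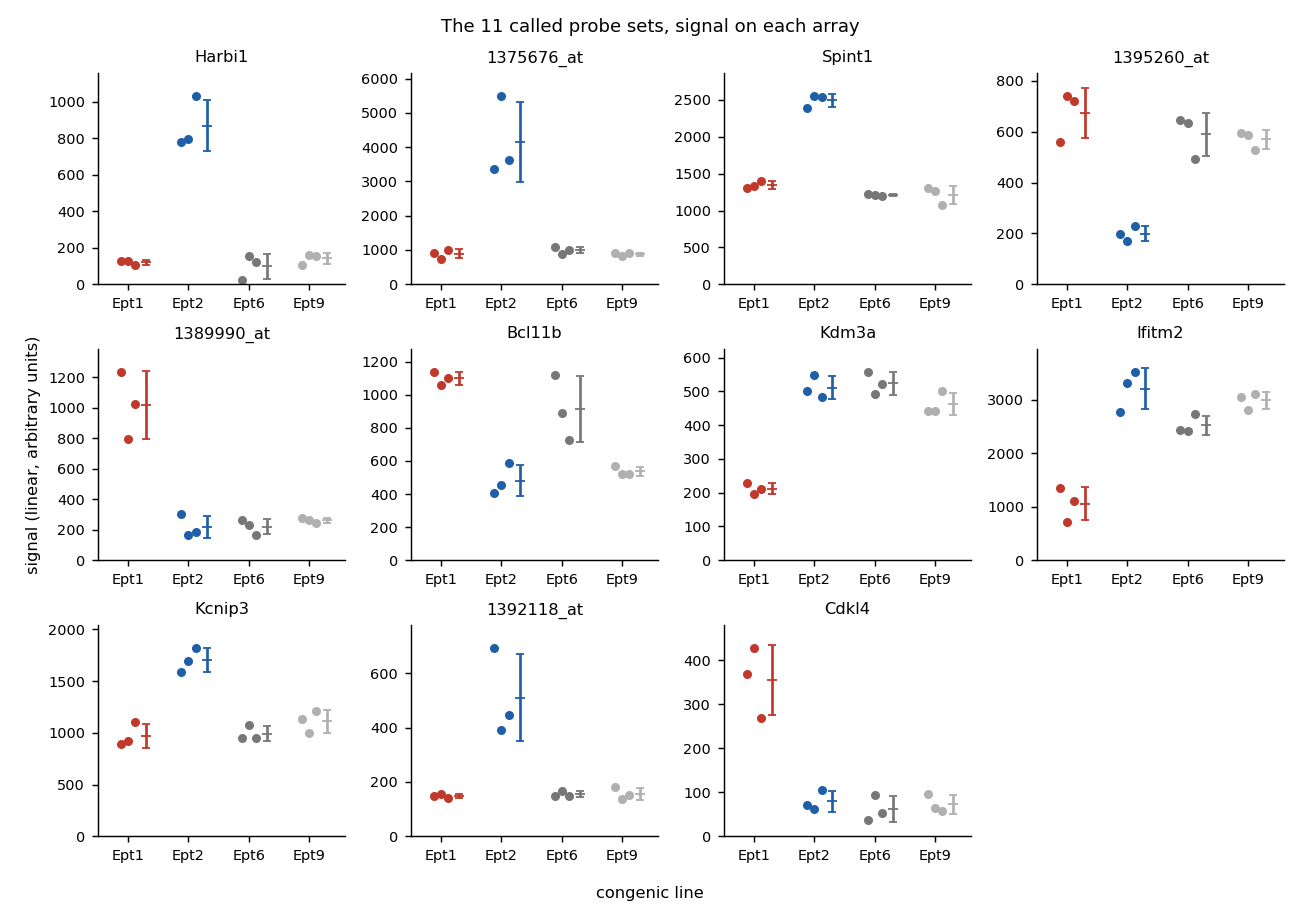
Signal (linear, arbitrary units, 1 vertical scale per panel, each starting at 0) of the 11 called probe sets on all 12 arrays. Points are single arrays, and the bars give mean ± SD over the 3 arrays of a line. In every panel the 3 Ept1 points and the 3 Ept2 points do not overlap, and Harbi1, Spint1, Kcnip3 and the probe sets 1375676_at, 1395260_at and 1392118_at show Ept2 apart from the other lines.

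For each called probe set it was asked which line left the range of the 6 Ept6 and Ept9 arrays. In 6 of the 11, only the Ept2 arrays lay outside that range, and in 4 only the Ept1 arrays did. For 1, Bcl11b, neither line did, and for 0 did both. Over all probe sets, the 3 Ept2 arrays lay outside the range in 5.19% and the 3 Ept1 arrays in 3.41%. This describes levels and is no test, because the calls share the Ept1 and Ept2 arrays.

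The genes called on chromosome 3 were all lower in Ept1 than in Ept2. Harbi1 derives from the transposase of a Harbinger DNA transposon. Its signal was 129, 129 and 105 in Ept1 against 779.7, 797 and 1033 in Ept2. It ran from 21.7 to 153 in Ept6 and from 106 to 162 in Ept9, so the 3 Ept2 arrays alone were high. The difference, Ept1 minus Ept2, was -2.69 ± 0.16 (SE) on the log2(signal + 16) scale, a 6.44-fold higher value in Ept2 (limma adjusted p = 0.000359). A different probe set of Harbi1 did not show it. Its signal was 764, 790.5 and 699.6 in Ept1 and 723, 670.1 and 876 in Ept2, and the difference was -0.00 with a 95% interval of -0.26 to 0.26. The platform annotation gives both probe sets to Harbi1, and why they differ was not tested.

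Spint1 encodes a membrane-bound Kunitz-type inhibitor of serine proteases, among them the activator of hepatocyte growth factor. The signal was 1300.2, 1334 and 1401 in Ept1 and 2393, 2556 and 2534 in Ept2, with 1203 to 1228 in Ept6 and 1077 to 1309 in Ept9. Ept2 was again the line apart, and its arrays did not come near the others. The log2 difference was -0.88 ± 0.072, or 1.84-fold, with a limma adjusted p of 0.00243. Kcnip3 encodes a calcium-binding protein that associates with voltage-gated potassium channels and also represses transcription. Its signal was 889, 923 and 1103 in Ept1 and 1590.4, 1694 and 1821 in Ept2. The Ept6 arrays ran from 946 to 1076 and the Ept9 arrays from 995 to 1212, all under the Ept2 arrays. The difference was -0.80 ± 0.10 (limma adjusted p = 0.0393). A dimmer probe set of Kcnip3 gave -1.02 ± 0.18 in the same direction, at an adjusted p of 0.152.

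The sequence just before the start of each of these 3 genes is shown because they lie on the chromosome of the Ept2 segment and were all higher in Ept2. The 250 bases come from the RefSeq annotation of GRCr8, an assembly of the BN strain and so of neither ACI nor COP. They lie at chr3:98136893-98137142 (plus strand) for Harbi1, chr3:126685031-126685280 (plus strand) for Spint1 and chr3:135195411-135195660 (minus strand) for Kcnip3. Capitals mark each CG dinucleotide, and each sequence reads 5′ to 3′ toward the gene.
Harbi1: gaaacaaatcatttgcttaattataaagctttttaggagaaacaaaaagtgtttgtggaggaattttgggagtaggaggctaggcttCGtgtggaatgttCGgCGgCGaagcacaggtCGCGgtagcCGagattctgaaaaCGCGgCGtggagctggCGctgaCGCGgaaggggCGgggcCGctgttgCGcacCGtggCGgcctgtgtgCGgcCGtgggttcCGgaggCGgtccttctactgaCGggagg
Spint1: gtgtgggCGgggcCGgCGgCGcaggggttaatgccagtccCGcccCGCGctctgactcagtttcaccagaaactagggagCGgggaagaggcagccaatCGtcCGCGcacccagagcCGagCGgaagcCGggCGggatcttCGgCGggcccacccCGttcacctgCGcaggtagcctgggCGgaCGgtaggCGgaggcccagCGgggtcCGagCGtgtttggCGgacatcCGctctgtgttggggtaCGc
Kcnip3: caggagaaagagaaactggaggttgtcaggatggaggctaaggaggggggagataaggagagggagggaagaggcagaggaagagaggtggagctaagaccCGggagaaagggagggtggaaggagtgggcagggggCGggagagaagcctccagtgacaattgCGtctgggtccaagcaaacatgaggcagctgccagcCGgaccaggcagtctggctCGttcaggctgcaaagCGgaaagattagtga
Harbi1 and Spint1 have 23 and 28 CG dinucleotides in this window and Kcnip3 has 6, where the median of the 33469 promoters in the table is 5. As many or fewer are found in 89.1%, 94.0% and 54.8% of those promoters. The estrogen response half-site, GGTCA or TGACC on the printed strand (each is the other's reverse complement), occurs in none of these 3 windows and in 35.4% of all promoters of that length.

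On chromosome 6, the chromosome of the Ept1 segment, both called genes were higher in Ept1. Bcl11b encodes a zinc finger transcription factor required for T cell development and for the maturation of some neurons. Its signal was 1138, 1061 and 1098 in Ept1 and 406, 452 and 585 in Ept2. Here the lines did not split by Ept1 against the rest, since Ept6 ran from 727 to 1120.4 and Ept9 from 520.1 to 567. The difference was 1.18 ± 0.13 on the log2 scale, 2.27-fold (limma adjusted p = 0.0197). Its other probe sets gave differences of 0.81 and 0.49 in the same direction, with limma adjusted p of 0.528 and 0.541.

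Cdkl4 encodes a kinase related to the cyclin-dependent kinases. It was the dimmest of the called genes, with a signal of 368, 428 and 269.5 in Ept1 and 70.6, 61.3 and 106 in Ept2. Ept6 ran from 35.9 to 93.6 and Ept9 from 56.2 to 96.6, so only Ept1 was high. The difference was 1.97 ± 0.26, 3.91-fold on the log2(signal + 16) scale, with the largest adjusted p among the called probe sets, 0.0497. The other probe set of Cdkl4 had signals of 122, 276 and 136 in Ept1 and 81.9, 71.8 and 79.9 in Ept2. They did not overlap either, although the difference of 0.96 ± 0.32 was not called (adjusted p = 0.524).

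Away from both segment chromosomes, Ifitm2 and Kdm3a were called, both lower in Ept1. Ifitm2 encodes an interferon-induced transmembrane protein that restricts the entry of viruses. The signal was 1345, 722 and 1112 in Ept1 and 2779.5, 3315 and 3524 in Ept2. The Ept6 range of 2414 to 2731 and the Ept9 range of 2806 to 3110.4 lay with Ept2, and the Ept1 arrays alone were low. Its difference was -1.62 ± 0.19 (3.08-fold, limma adjusted p = 0.0240). Kdm3a encodes a histone demethylase that removes methyl groups from lysine 9 of histone H3. It gave 228, 197 and 211 in Ept1 and 501, 549 and 483 in Ept2, with 491 to 558 in Ept6 and 443 to 502 in Ept9. The difference was -1.21 ± 0.14, and Ept1 was again the line apart (limma adjusted p = 0.0213).

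No gene symbol is given for 4 called probe sets in the platform annotation used here. Among those lower in Ept1, 1375676_at had signals of 924, 741 and 991 in Ept1 and 3367, 5498 and 3620.0 in Ept2, a difference of -2.19 ± 0.17. The other, 1392118_at, had 149, 155 and 141 in Ept1 and 694, 390.3 and 448 in Ept2, a difference of -1.64 ± 0.21. In both, the Ept6 and Ept9 arrays lay with Ept1. Of those higher in Ept1, 1395260_at had 560.0, 741 and 719 in Ept1 and 196, 171 and 229.7 in Ept2, and it was low in Ept2 alone. The last, 1389990_at, had 1235, 792 and 1022 in Ept1 and 301, 163 and 186 in Ept2, and it was high in Ept1 alone. Their differences were 1.68 ± 0.16 and 2.17 ± 0.22. Limma adjusted p-values of these 4 ran from 0.00243 to 0.0452.

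**Figure D2:**
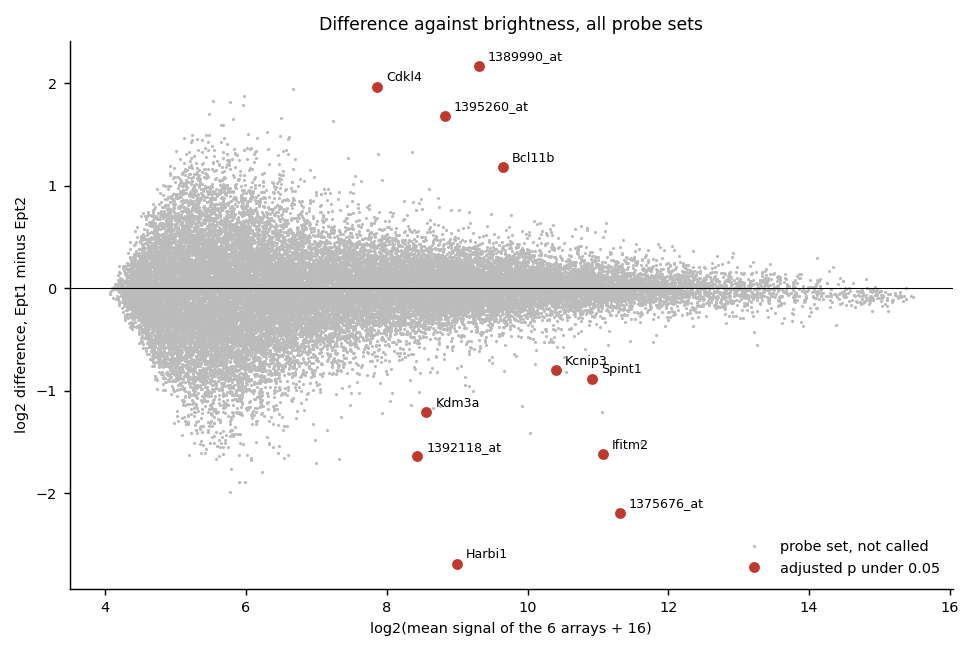
Difference between the lines (vertical axis, log2 scale, Ept1 minus Ept2) against log2 of the mean signal of the 6 arrays plus 16 (horizontal axis) for all 31042 probe sets. Grey points were not called and red points are the 11 called probe sets, 4 above 0 and 7 below, with the spread of the grey points widest among dim probe sets.

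Just outside the threshold the adjusted p stepped from 0.0497 to 0.0601, and 22 probe sets had one under 0.10. The genes that shared 0.0601 and were not called were Ptprj, with an estimate higher in Ept1, and S100a6, Cldn8, Mga and Sppl2a, with estimates lower in Ept1. Mga, which encodes a transcription factor that pairs with MAX, and Sppl2a, which encodes a protease that cuts within membranes, lie on chromosome 3. The probe set of Mga that came this near had 265, 189.8 and 243 in Ept1 and 626, 515 and 487 in Ept2. That of Sppl2a had 462, 586 and 729 in Ept1 and 1120.2, 1491 and 1341 in Ept2. Brighter probe sets of both genes did not go the same way. The brightest of Mga gave 0.38 ± 0.22 with overlapping arrays. Those of Sppl2a gave 0.01 ± 0.082, the brightest, 0.52 ± 0.11, the next, and 0.015 ± 0.12, the one after. The arrays of the first and last of these overlapped. Because only Bcl11b and Cdkl4 were called higher in Ept1 among named genes, the next 8 genes by p in that direction are given here, none of them called. Ptprj, a receptor-type tyrosine phosphatase encoded on chromosome 3, had signals of 368, 437 and 557 in Ept1 and 179, 149 and 179 in Ept2. The Ept6 and Ept9 arrays, 349 to 439.9 and 356 to 425, lay with Ept1. Its difference was 1.33 ± 0.18, whereas a brighter probe set gave 0.13 ± 0.12 with overlapping arrays.

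Of the other 7, Ganc, Iftap, Fam83d and Eif2ak4 also lie on chromosome 3. Fam83d, whose protein sits on the mitotic spindle, had 311, 345 and 299.8 in Ept1 and 105, 147 and 108 in Ept2 (1.31 ± 0.20, limma adjusted p = 0.0909). Ganc encodes an alpha-glucosidase and had a difference of 0.97 ± 0.14 (limma adjusted p = 0.0815). For Iftap, which encodes a protein associated with intraflagellar transport, it was 0.55 ± 0.083 at the same adjusted p. Eif2ak4 encodes a kinase that slows translation when amino acids are short, and gave 0.64 ± 0.11 at 0.144. The remaining 3 lie elsewhere. Egr1, an immediate early transcription factor on chromosome 18, had 3153, 2886 and 3095 in Ept1 and 2170.4, 2059 and 2334 in Ept2 (0.47 ± 0.075, limma adjusted p = 0.116). Bag6, a chaperone gene, was dim at 123 to 174 against 17.4 to 35.1 (1.94 ± 0.33), and a brighter probe set gave 0.36 ± 0.10. Pabpc4 encodes a poly(A)-binding protein and gave 0.40 ± 0.069, while a brighter probe set of the gene gave -0.01 ± 0.074.

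The lines were then compared chromosome by chromosome, using the brightest probe set of each of 14217 genes and an unadjusted p under 0.01, because the adjusted calls are few. Over all genes 2.20% reached it. Harbi1 is counted here by its brighter probe set and so not among them. On chromosome 3 it was 53 of 1072 genes (4.94%), 24 with estimates higher in Ept1 and 29 lower. Chromosome 6 had 20 of 603 (3.32%), 9 higher and 11 lower. The other chromosomes together had 239 of 12492 (1.91%), and single chromosomes ran from 1.03% to 3.12%, leaving out Y with 4 genes. On neither segment chromosome did the genes lean to one direction by much. Among the 21 chromosomes without Y, chromosome 3 had the highest share in this fit and in 18 of 19 alternatives, and it came second with the Gapdh covariate. This rank was added after seeing the data. Chromosome 6 lay only just above chromosome 2, at 3.12%, and its rank was less steady. A chromosome other than 3 lay above it with a pseudocount of 1, with the 40th percentile filter and no trend, and without replicate 1 of Ept1, where its share was 1.99% beside 2.13% for chromosome 18. These shares are descriptions with no test.

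Which line stood apart differed in count between the chromosomes. Among the 53 genes of chromosome 3, only the Ept2 arrays left the range of the Ept6 and Ept9 arrays in 29 and only the Ept1 arrays in 2. Among the 20 of chromosome 6, the counts were 7 for Ept2 and 6 for Ept1. Elsewhere, among 239, they were 66 for Ept2 and 30 for Ept1. Neither line left the range in 22 genes of chromosome 3, 7 of chromosome 6 and 137 elsewhere. These counts describe levels and are no test, because the genes were picked in the same comparison of Ept1 with Ept2. On chromosome 3 the range includes Ept6, whose own COP segment lies there, so it is no neutral reference for that chromosome. Sardh, counted for Ept1 at 310 to 354, had 1105 to 1311 in Ept6, 424 to 539 in Ept9 and 474 to 509 in Ept2.

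**Figure D3:**
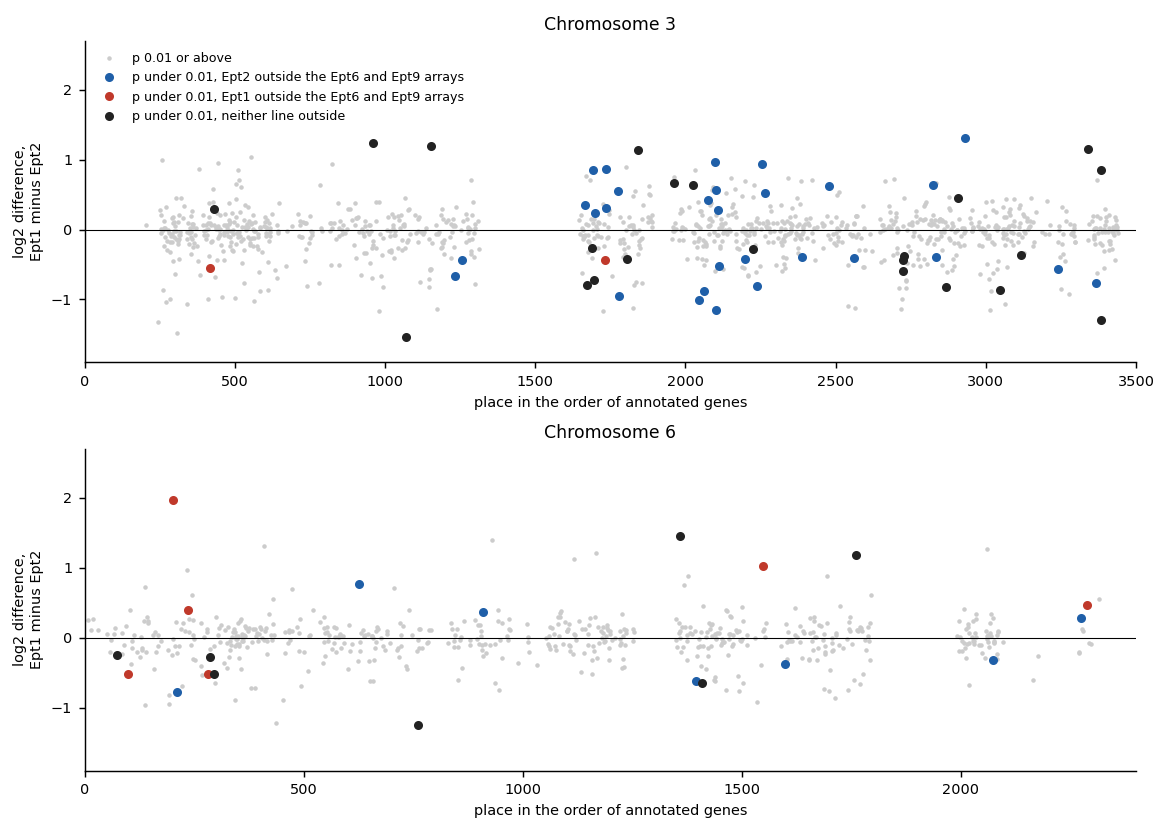
Difference between the lines (vertical axis, log2 scale, Ept1 minus Ept2, brightest probe set per gene) against the place of each measured gene in the order of annotated genes (horizontal axis, a rank and not a distance) on chromosomes 3 and 6. Colored points are genes with an unadjusted p under 0.01, blue where only Ept2 and red where only Ept1 lies outside the Ept6 and Ept9 arrays, and black otherwise. There are 29 blue points on chromosome 3 and 7 on chromosome 6, densest in the middle stretch of chromosome 3.

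Along the order of annotated genes, cut into windows of 200, the share of chromosome 3 genes with a p under 0.01 ran from 0% to 17.5% per window. The window from Ptprj to Apip held 11 of 63 measured genes (17.5%), 7 of them with only Ept2 apart. The window from Tmco5a to Secisbp2l, which includes Spint1, held 10 of 93 (10.8%), 9 of them with only Ept2 apart. Between these, the window from Ehf to Meis2 held 3 of 55 (5.45%). The third highest share, 5 of 58 (8.62%), lay in the window from Bcas1 to Eef1a2, with 2 of them with only Ept2 apart. On chromosome 6 the window from Cdkl4 to Asxl2 held 6 of 88 (6.82%), 3 of them with only Ept1 apart. A higher share there, 2 of 10 genes, came from the thinly filled last window, from Zfp386 to Tmem196, with 1 gene of each kind. The shares per window come from the fit described above only and were not recomputed in the alternatives. The order comes from GRCr8, and where the COP segments begin and end is not given in the sources used here.

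Several genes of these windows, chosen after their values were seen, show how the arrays lay. Lrrc57, a leucine-rich repeat gene of the second window, had 237, 325 and 203 in Ept1 and 675, 524 and 533 in Ept2, with 249 to 286 in Ept6 and 264 to 324 in Ept9. Only Ept2 was high, and the difference of -1.15 ± 0.18 missed the threshold (limma adjusted p = 0.116). Snap23, a gene for a membrane fusion protein in the same window, went the other way, at 2278, 2058 and 2150.4 in Ept1 and 1274, 1785 and 1344 in Ept2 (0.57 ± 0.12, limma adjusted p = 0.307). A dimmer probe set of Snap23 gave -0.26 ± 0.077, the opposite sign. In the first window Traf6, an adaptor of innate immune signaling, had 426, 286 and 401 in Ept1 and 1002, 631 and 598 in Ept2, while its other probe sets gave log2 differences of -0.69, 0.28 and -0.07. Accs in the same window had 442, 458 and 437 in Ept1 and 261, 262 and 196 in Ept2. On chromosome 6, Spast encodes the microtubule-severing protein spastin and had 1013, 1058 and 1010.2 in Ept1 and 1551, 1435 and 1462 in Ept2. Its Ept6 and Ept9 arrays, 1427 to 1585 and 1493 to 1528, lay with Ept2, so that Ept1 alone was low (-0.52 ± 0.078, limma adjusted p = 0.0808).

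The lactotroph genes showed no call. Prl had 41979, 44766 and 45513 in Ept1 and 45078, 51767 and 43841 in Ept2, which overlap. The difference was -0.09 ± 0.088 with a 95% interval of -0.28 to 0.11, at signals near the top of the array's range (limma adjusted p = 0.860). Drd2, the dopamine receptor through which prolactin release is inhibited, gave 0.01 ± 0.089. Pou1f1, the transcription factor of the lactotroph, somatotroph and thyrotroph lineage, gave 0.06 ± 0.066. Vip, a neuropeptide gene that estrogen raises in the pituitary, had the widest gap of the list, 1463, 959 and 2594 in Ept1 and 5971, 3091 and 4680.3 in Ept2. The groups did not overlap, Ept6 lay with Ept1 at 802 to 1878 and Ept9 with Ept2 at 2738 to 4528, and the difference of -1.51 ± 0.32 was not called (limma adjusted p = 0.307). Of the 8 lactotroph genes measured, 2 had an estimate higher in Ept1 and 6 lower. Their median was -0.13, beside -0.02 over all genes. It was -0.032 without replicate 2 of Ept2 and -0.24 with the Gapdh 3′ minus 5′ covariate.

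In the gene lists for cell types and pathways, 0 members were called in this comparison. They are therefore described by counts at an unadjusted p under 0.05, which 488 of 14217 genes reached with an estimate higher in Ept1 (3.43%) and 711 with one lower (5.00%), and by the list's median difference. Over all genes 46.6% of estimates were higher in Ept1 and 53.4% lower, against which the counts by sign below are to be read. The list medians are small and unsteady, since those of 28 of 29 lists, all but ion channels, moved by more than 1.5 times in at least 1 of 19 alternatives and 14 turned sign.

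Gonadotroph and thyrotroph genes leaned below 0. For gonadotrophs, 7 of 8 measured genes had an estimate lower in Ept1 and the median was -0.42. At an unadjusted p under 0.05, 3 were lower and 1 was higher. The 3 Ept1 arrays lay all below the 3 Ept2 arrays for 1 of the 8 and all above for 1, beside 8.37% and 6.15% of all genes. Lhb, the luteinizing hormone beta subunit, had 261, 273 and 236 in Ept1 and 352, 332 and 405 in Ept2, which did not overlap (-0.47 ± 0.15, limma adjusted p = 0.508). Nr5a1, the gonadotroph transcription factor also called SF-1, had 169, 137 and 174 in Ept1 and 473, 155 and 324 in Ept2, which did. The exception in sign was Egr1. For thyrotrophs, 7 of 7 had an estimate lower in Ept1, that of the receptor gene Trhr by less than 0.01, with a median of -0.31. Only 1 of these 7 reached an unadjusted p under 0.05. Tshb, the thyrotropin beta subunit, had 7084, 6094 and 9660.0 in Ept1 and 18692, 7187 and 9820.2 in Ept2, where replicate 1 of Ept2 alone was far above the rest. That array was also the highest of the 6 for Fshb (678, 234 and 331 in Ept2) and for Gnrhr, the receptor for the hypothalamic hormone that drives gonadotrophs (946, 243 and 377 in Ept2). Without it the medians were -0.26 for gonadotrophs and -0.16 for thyrotrophs, and without replicate 1 of Ept1 that of thyrotrophs was -0.12. With the Gapdh 3′ minus 5′ covariate the gonadotroph and thyrotroph medians were 0.29 and 0.18, above 0.

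Gh1 had 33815, 30169 and 34322 in Ept1 and 40693, 36070.0 and 38199 in Ept2. These did not overlap, and the difference was -0.23 ± 0.085 (limma adjusted p = 0.576). The other somatotroph genes did not lean the same way, since 5 of the 7 measured had an estimate higher in Ept1 and the list's median was 0.23, or -0.23 when probe sets under the 60th percentile were left out. It was 0.013 without replicate 1 of Ept1 and 0.0030 without replicate 2 of Ept2. Corticotroph and melanotroph genes were split, 4 higher and 3 lower. Pomc, the corticotropin precursor, was dim at 101, 152 and 93.8 in Ept1 and 90.7, 33.8 and 10.6 in Ept2 (1.31 ± 0.49, limma adjusted p = 0.575). Pcsk2, a prohormone convertase encoded on chromosome 3, had 1310.5, 1856 and 1560.3 in Ept1 and 876, 1145 and 1027 in Ept2 (0.62 ± 0.14, limma adjusted p = 0.331).

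**Figure D4:**
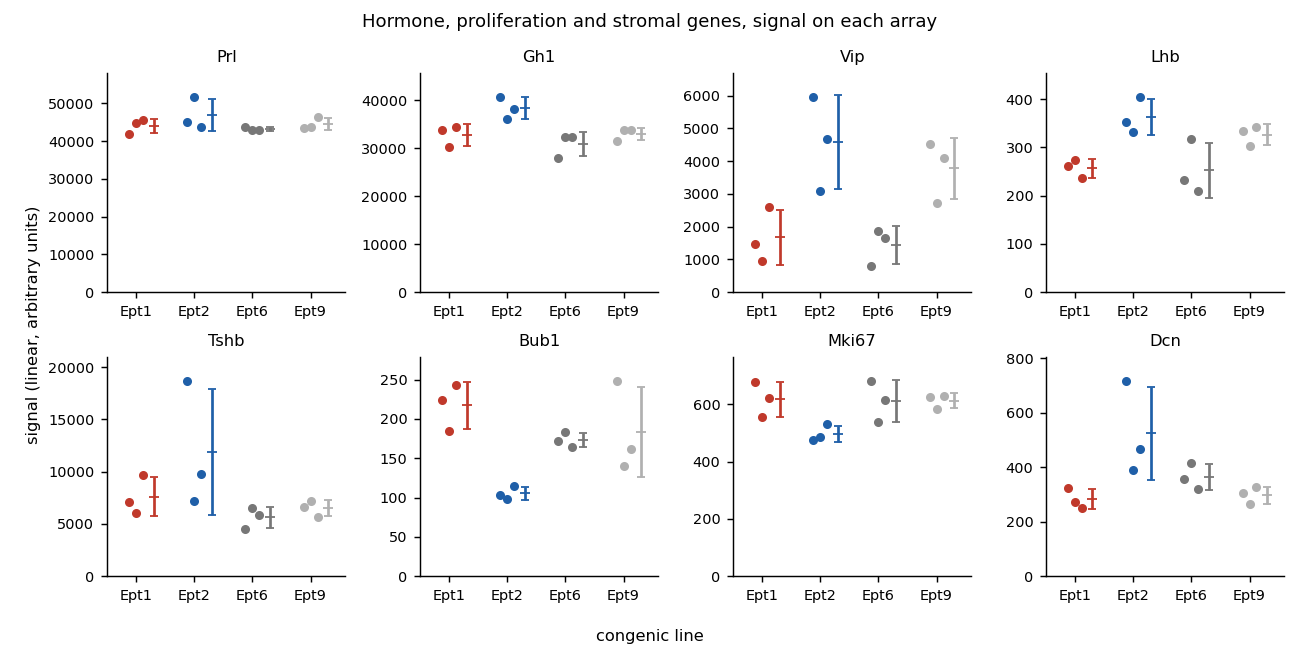
Signal (linear, arbitrary units, 1 vertical scale per panel, each starting at 0) of Prl, Gh1, Vip, Lhb, Tshb, Bub1, Mki67 and Dcn on all 12 arrays. Points are single arrays, and the bars give mean ± SD over the 3 arrays of a line. Prl overlaps between Ept1 and Ept2, Vip is low in Ept1 and Ept6, and 1 Ept2 array stands far above the others for Tshb.

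Among genes of dividing cells, 23 of 26 mitosis and spindle genes had an estimate higher in Ept1, 5 of them at an unadjusted p under 0.05 and 0 lower, and the median was 0.23. The 3 Ept1 arrays lay all above the 3 Ept2 arrays for 8 of the 26 and all below for 0, beside 6.15% and 8.37% of all genes by their brightest probe set. The summed signal of the list overlapped between the lines, at 8596.7 to 10151.5 in Ept1 and 7081.4 to 9076.5 in Ept2. Its genes were read on the same 6 arrays and are not independent of each other. Bub1, a kinase of the spindle checkpoint, had 224, 185 and 243 in Ept1 and 103, 98.7 and 115 in Ept2 (0.94 ± 0.22, limma adjusted p = 0.357). It lies on chromosome 3, and so does Nusap1, a spindle-associated gene (0.42 ± 0.13). Off the segment chromosomes, Mki67, the proliferation marker Ki-67, had 677, 555 and 621 in Ept1 and 476, 486 and 529.9 in Ept2, and Top2a, a DNA topoisomerase of dividing cells, had 385, 438 and 454 in Ept1 and 278, 328 and 381 in Ept2. Neither pair overlapped and neither was called (limma adjusted p = 0.578 and 0.625). S phase and DNA replication genes had 16 of 21 estimates higher in Ept1, but 0 at an unadjusted p under 0.05 in either direction and a median of 0.11. Pcna, the DNA polymerase clamp, overlapped at 3458 to 3821 and 3582 to 4149.

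Macrophage and leukocyte genes had estimates higher in Ept1 for 19 of 22, 4 of them at an unadjusted p under 0.05 and 0 lower, with a median of 0.27. The 3 Ept1 arrays lay all above the 3 Ept2 arrays for only 1 of the 22, Cd14, and all below for 0. Over all genes by their brightest probe set these shares were 6.15% and 8.37%. Cd14, a co-receptor for bacterial lipopolysaccharide, had 651, 645 and 597 in Ept1 and 312, 454 and 502 in Ept2, which did not overlap (0.59 ± 0.16, limma adjusted p = 0.450). The leukocyte marker Ptprc had 372, 494 and 444 in Ept1 and 273, 372 and 354 in Ept2, which did. The summed signal of the list ran from 31561 to 33414 in Ept1 and from 19478 to 33083 in Ept2, with the lowest sum again in replicate 1 of Ept2. Without that array the median was 0.087, and that of the mitosis and spindle genes was 0.14. With the Gapdh covariate they were 0.0018 and 0.37.

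Folliculostellate and stem cell genes had 11 of 12 estimates lower in Ept1 and a median of -0.16, which was -0.0098 with the Gapdh covariate and -0.27 without replicate 2 of Ept2. S100b, their classical marker, had 499.9, 656 and 595 in Ept1 and 971, 704 and 751 in Ept2 (-0.45 ± 0.14, limma adjusted p = 0.508). Endothelial genes had 9 of 11 lower, with a median of -0.19 (-0.080 with that covariate, -0.33 without replicate 1 of Ept1 and -0.35 without replicate 2 of Ept2), and their summed signal ran from 3159.6 to 3942 in Ept1 and from 3825 to 4571 in Ept2. Stroma and matrix genes were mixed, 7 higher and 9 lower. The proteoglycan gene Dcn had 323, 273 and 250.2 in Ept1 and 717, 389 and 468 in Ept2 (-0.82 ± 0.21), whereas Lox, which encodes a collagen cross-linking enzyme, had 402, 462 and 428 in Ept1 and 180.5, 314 and 224 in Ept2 (0.84 ± 0.19). Within this list single genes thus differed in direction, and the summed signal overlapped, at 8071 to 11010.4 and 7654 to 11199. Red blood cell genes had 3 of 4 lower, 2 of them at an unadjusted p under 0.05 and 0 higher. Hbb, a hemoglobin beta gene, lay at 15282 to 17138 in Ept1 and 18023 to 19269.8 in Ept2. Posterior lobe and nerve genes had 9 of 12 lower, with summed signals of 8799.9 to 9482 and 9372 to 10204. The part of these cell types in the 11 calls was not tested.

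**Figure D5:**
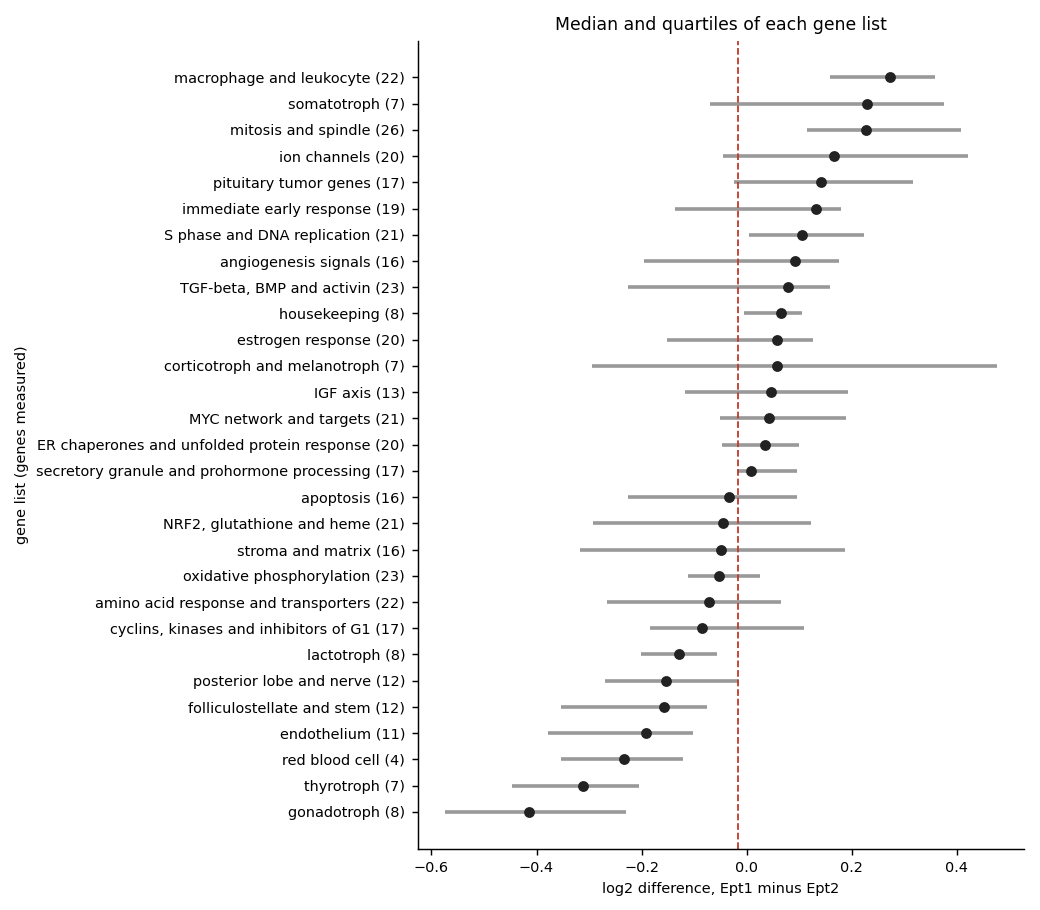
Median (point) and quartiles (bar) of the difference between the lines, Ept1 minus Ept2 on the log2 scale, for 29 gene lists, with the number of measured genes in parentheses. The dashed line is the median of all genes, -0.02. Macrophage and leukocyte, somatotroph and mitosis genes lie highest, at 0.27, 0.23 and 0.23, and gonadotroph genes lowest, at -0.42.

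Estrogen response genes were balanced, with 12 of 20 estimates higher in Ept1 and a median of 0.06. Pgr, the progesterone receptor gene that estrogen induces, overlapped at 819 to 907 and 692 to 872, and Esr1, the estrogen receptor alpha gene, was dim and overlapped at 27.4 to 54.5 and 25.6 to 65.7. Igfbp5, which encodes a binding protein of insulin-like growth factors, had 3384, 2689 and 2935 in Ept1 and 5364, 3232 and 3986 in Ept2. Genes of the MYC network had 13 of 21 estimates higher in Ept1, 4 of them at an unadjusted p under 0.05 and 0 lower, with a median of 0.04. Myc itself had 900.0, 510.3 and 648 in Ept1 and 1086, 658 and 789 in Ept2 (-0.30 ± 0.21, limma adjusted p = 0.787). Pvt1, the long non-coding RNA gene next to Myc, gave 0.13 ± 0.23. The plasma glycoprotein gene A1bg was near the array's floor at 12.3 to 34.5 and 11.1 to 52.7. Chaperones of the endoplasmic reticulum, secretory granule genes and oxidative phosphorylation genes had medians of 0.04, 0.01 and -0.05, near that of all genes. The remaining 11 lists had medians from -0.09, for G1 cyclins, kinases and inhibitors, to 0.17, for ion channels. Among them, pituitary tumor genes had 12 of 17 estimates higher in Ept1, 4 of them at an unadjusted p under 0.05 and 0 lower, with a median of 0.14. Of the apoptosis genes, Bik, a member of the BCL2 family that promotes cell death, had 459.8, 478 and 641 in Ept1 and 813, 799.5 and 1032 in Ept2 (-0.73 ± 0.15, limma adjusted p = 0.295).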

How the data were processed

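Anterior pituitary RNA was labeled with biotin and hybridized to Affymetrix-type expression arrays, 1 array per sample. The deposited values are linear intensity signals, which the authors scaled to the same trimmed mean (500.18 to 500.19 when 2% is trimmed from both ends). Neither the software nor the background correction is given in the sources used here, and no detection call was used. After removal of 57 control probe sets, signals were taken as log2(signal + 16) and not rescaled. Folds on this scale understate the change of dim genes. The 6 Ept1 and Ept2 arrays were fitted with limma 3.58.1 in R 4.3.3 (lmFit, and eBayes with an intensity trend), two-sided, with Benjamini-Hochberg adjustment over 31042 probe sets and a threshold of 0.05. This step was tested on simulated data. The number of arrays limits the precision.

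In the platform annotation 20826 probe sets have 1 gene symbol, 436 have several and 9780 have none. Of the 14217 genes, 14167 have a chromosome in GRCr8. Medians of gene lists and counts by chromosome used the brightest probe set per gene. Genes were named by rule: up to 15 per direction with the largest called difference and no overlap between arrays, called genes on chromosomes 3 and 6, called list members, and A1bg, Myc, Pvt1, Esr1, Prl, Gh1 and Pou1f1. With under 5 called genes in a direction, the 10 with the smallest p were named. The members and lists were chosen with earlier results of these data known. Alternatives were pseudocounts of 1 and 64, filters at the 40th and 60th percentile of signal, quantile normalization, median centring, no intensity trend, robust eBayes, array weights, all 12 arrays in the fit, the replicate number as a block, the Gapdh 3′ minus 5′ covariate and leaving out each array.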

Additional observations from a re-analysis of the deposited data

How the results depend on the processing

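The number of called probe sets depended on the processing. None of the 7 called genes changed sign in an alternative. Every alternative reuses arrays on which these genes were picked for large differences, so a kept sign adds no independent support. Harbi1 was called in 17 of 19 alternatives, Spint1 in 16, Bcl11b and Ifitm2 in 12 each, Kdm3a in 10, Kcnip3 in 8, and Cdkl4 in 5 of 18. Against 11 called (4 higher in Ept1, 7 lower, 3 genes on chromosome 3 and 2 on chromosome 6), the 40th percentile filter gave 23 (8 higher, 15 lower, 10 on chromosome 3) and the 60th gave 22 (16 lower, 9 on chromosome 3), with fewer probe sets tested. All 12 arrays in 1 fit gave 47 (19 higher, 28 lower, 15 on chromosome 3, 4 on chromosome 6). Robust eBayes gave 17 (11 lower, 7 on chromosome 3). A pseudocount of 1 gave 16, of which 11 were lower, with 6 genes on chromosome 3, and a pseudocount of 64 gave 8, with 1 gene on chromosome 6. Quantile normalization and array weights each left 1 gene on chromosome 6, and median centring gave 10 calls. Without the intensity trend limma called 0 in every one of these counts, with 2160 at an unadjusted p under 0.05, and with the Gapdh covariate also 0, with 2466. No trend together with the 40th percentile filter, chosen after seeing the data, gave 1 call, lower in Ept1 and on chromosome 3, with 0 higher and 0 on chromosome 6.

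Leaving out 1 array gave 4 to 8 calls, 0 to 4 higher, 3 to 4 lower, 2 to 3 genes on chromosome 3 and 0 to 1 on chromosome 6. Each of the 6 arrays but replicate 1 of Ept2 (8 calls) moved the count by more than 1.5 times, to 5 without replicate 1 or 2 of Ept1 or replicate 3 of Ept2, and to 4 without replicate 3 of Ept1 or replicate 2 of Ept2. Same-numbered arrays of the lines did not deviate together (correlations of 0.028, 0.0068 and -0.0025), so the numbers were not taken as pairs. The fit with the replicate block called 18 (14 lower, 6 genes on chromosome 3, 1 on chromosome 6), 10 of them among the 11. The counts at an unadjusted p under 0.01, also added after seeing the data, went on chromosome 3 from 53 to 32 without the trend and 29 with the Gapdh covariate, and from 36 to 57 without 1 array. On chromosome 6 they went from 20 to 34 with all 12 arrays, to 12 with the filter and no trend, and from 12 to 29 without 1 array. Among genes with no call, signs turned for Myc (0.27) and Pvt1 (-0.22) with the Gapdh covariate, for the Pvt1 log2 difference without replicate 3 of Ept1 (range without 1 array -0.0885 to 0.29), and for the Esr1 log2 difference without replicate 2 of Ept1 or replicate 1 of Ept2 (range without 1 array -0.48 to 0.018). The cause was not tested. The medians of the mitosis and the macrophage and leukocyte lists stayed above 0 in 19 of 19 alternatives, from 0.14 to 0.37 and from 0.0018 to 0.37.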
